A study of Mus musculus with 2 samples.

Results

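Cluster 1 is one of 23 numbered clusters of nuclei from the medial prefrontal cortex of mice, and its leading genes Ccbe1, Otof and Cux2 mark upper layer neurons. Its members were taken by the authors' cluster number alone, which gave 1570 of 12739 nuclei (12.3%), with both libraries pooled. One library came from male Npas2 knockout mice and the other from male wild-type littermates. Each was made from the pooled cortex of 4 animals killed at zeitgeber time 20, in the dark phase of a cycle of 12 h of light, 20 h after the lights came on. The design concerns NPAS2, a clock transcription factor, in sleep and napping. The knockout allele, the deleted part of the gene, the strain and the age were not given in the sources used here.

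Neurons of cortical layer 2/3 are glutamatergic cells that send their axons to other cortical areas and, in part, to the striatum, and they are therefore called intratelencephalic neurons. They express the homeodomain factors CUX1 and CUX2, which shape their dendrites and synapses. Deeper layers hold further intratelencephalic cells as well as extratelencephalic, near-projecting and corticothalamic cells, each with its own transcription factors. In the medial prefrontal cortex of the mouse, layer 4 is lacking, so the upper layer cells border directly on layer 5.

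All levels below are scaled within each nucleus to 10000 counts in total and then averaged over nuclei. There is 1 value per cluster and no replicate, and the clusters were made from the genes described here, so folds between clusters are descriptions without a test. Ranges in parentheses are 95% counting intervals, which cover counting error only, since nuclei of 1 pool are not replicates. The nuclei of cluster 1 had a median depth of 3984 unique molecular identifiers (UMIs), and 3 UMIs correspond to a mean of about 0.00522. The libraries had estimated mean depths of 3295 UMIs per nucleus in the knockout-labelled one and 4037 in the wild-type-labelled one. Npas2 averaged 1.39 in the knockout-labelled library and 1.29 in the wild-type-labelled library, so the libraries are named by their labels throughout. A tag near the 3' end checks the genotype only where it lies in the deleted part.

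The 6 markers given for the cluster had levels 4.19-fold to 28.3-fold above the mean of the 7 other excitatory-like clusters (0, 2, 5, 7, 15, 16 and 20, together 4967 nuclei). They came with the choice of the cluster, so their levels are a description and no check of its label. Ccbe1 (ENSMUSG00000046318, chromosome 18, 66045302 to 66302741, minus strand, mm10), which encodes a secreted matrix protein required for lymphatic vessel growth, had a mean of 2.28 (2.16 to 2.41) in cluster 1. The next level was 0.891 in cluster 7, and cluster 0 had 0.192. Otof (ENSMUSG00000062372, chromosome 5, 30367062 to 30461932, minus strand), the calcium sensor of exocytosis in inner hair cells, had 0.659 (0.594 to 0.729) in cluster 1 and at most 0.0659 in any other excitatory-like cluster. Its second highest level of all was 0.251 in cluster 6, which carries markers of striatal spiny projection neurons. Ccbe1 held 66.1% of its signal over all nuclei in cluster 1, and Otof held 66.8%.

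Nectin3 (chromosome 16, 46387706 to 46498525, minus strand), a cell adhesion molecule of the immunoglobulin family, had 2.05 (1.94 to 2.17) in cluster 1, against 1.40 in cluster 10 and 0.587 in cluster 0. Itga8 (chromosome 2, 12106632 to 12301922, minus strand), an integrin subunit, had 2.01 (1.90 to 2.13), against 1.47 in cluster 20, 1.46 in cluster 3 and 1.33 in cluster 7. Like Ccbe1 and Otof, both were highest in cluster 1 of all clusters.

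Smoc2 (chromosome 17, 14279506 to 14404790, plus strand), a secreted calcium-binding protein, had 0.737 (0.669 to 0.811) in cluster 1, against 1.08 in cluster 20 and 0.271 in both cluster 0 and cluster 7. Cux2 (chromosome 5, 121856366 to 122050102, minus strand) had 1.96 (1.85 to 2.08), against 2.13 in cluster 17 and 1.98 in cluster 20. These 2 markers thus peaked elsewhere, and cluster 20, the other excitatory-like cluster that was high in both, held only 52 nuclei. The inhibitory-like clusters 9 and 13 also had Cux2 levels of 1.54 and 1.21, while 5 of the 7 other excitatory-like clusters stayed below 0.05.

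**Figure D1:**
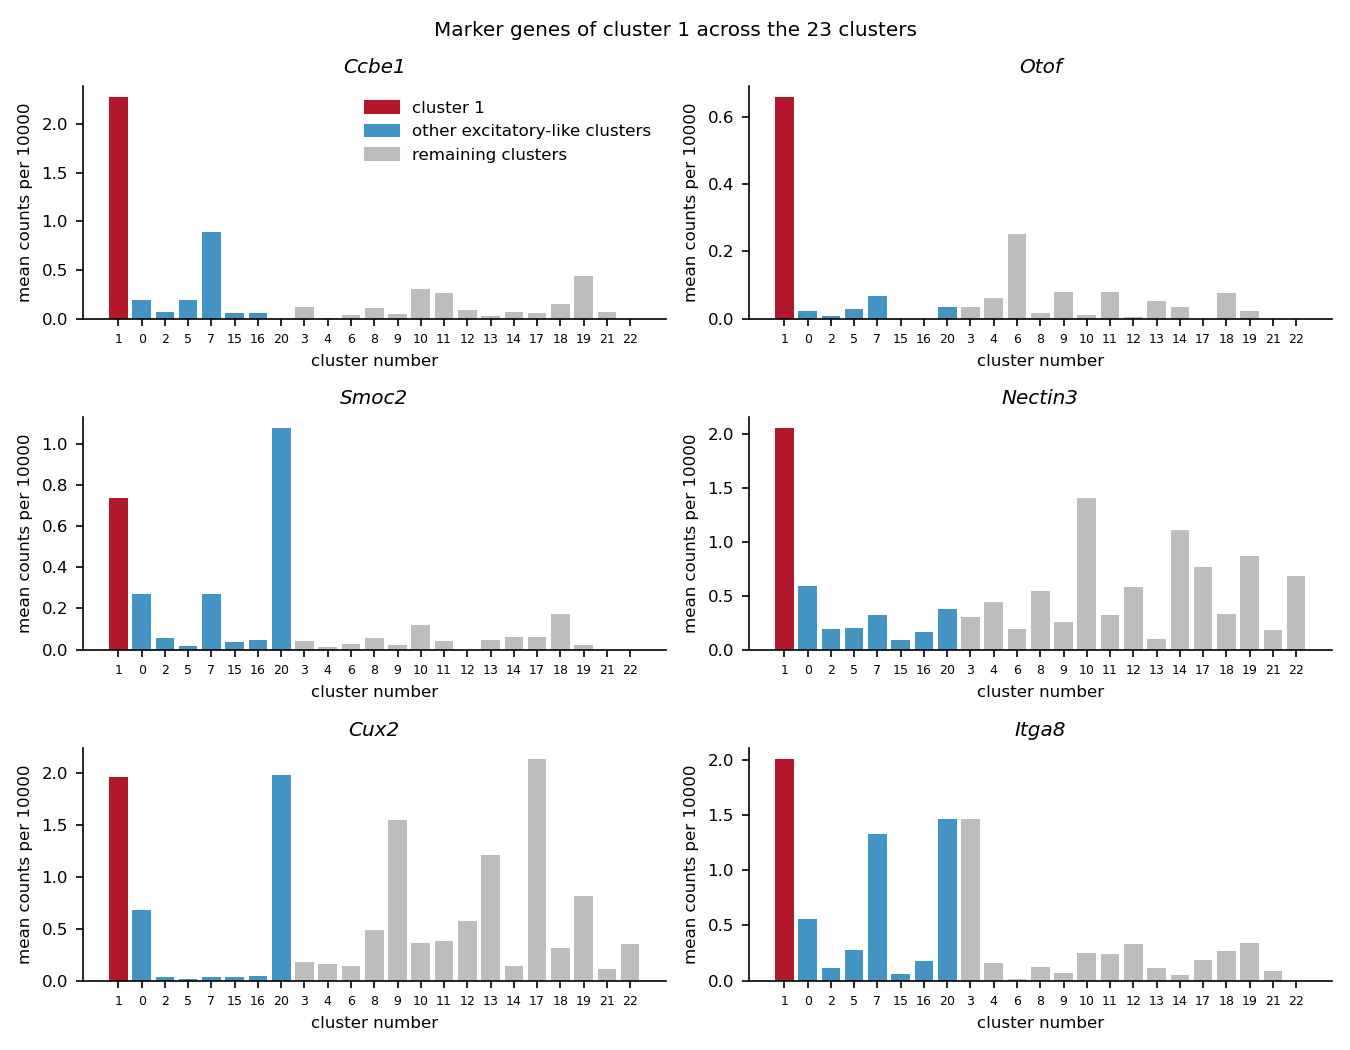
Mean counts per 10000 (vertical axes, from 0) of the 6 marker genes in cluster 1 (red), the other excitatory-like clusters (blue) and the remaining clusters (grey). Ccbe1, Otof, Nectin3 and Itga8 are highest in cluster 1, Smoc2 is highest in cluster 20 and Cux2 in cluster 17.

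Of 16 layer 2/3 intratelencephalic markers, all above the floor of 0.05, 13 were at least 2-fold higher in cluster 1 than in the other excitatory-like clusters and none was 2-fold lower, with a median log2 difference of 1.52. Of all 11181 genes above that floor, 236 (2.11%) were higher by 2-fold or more and 399 (3.57%) lower, with a median of -0.03. This list shares Ccbe1, Otof and Cux2 with the markers given for the cluster, so it does not stand apart from them. The 3 markers short of 2-fold were the POU factors Pou3f2, Pou3f3 and Pou3f1, at log2 differences of 0.85, 0.30 and -0.43. The summed level of the 16 was 21.6 in cluster 1, the second highest after 22.4 in cluster 20, and 2 of the 16 were highest in cluster 1.

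Among the layer 2/3 markers, Rasgrf2, which encodes a calcium-regulated exchange factor for RAS and RAC, had 2.58 (2.45 to 2.71) in cluster 1 and 0.373 in the other excitatory-like clusters. Calb1, encoding the calcium buffer calbindin, had 0.775 (0.705 to 0.851) and 0.121. Cux1, the paralog of Cux2, had 1.67 in cluster 1 and 0.567 in the others. Enpp2, encoding autotaxin, had 2.55 and 0.653, and Lamp5 had 0.895 and 0.395. Rasgrf2, Calb1 and Lamp5 are also interneuron genes here, and each was highest in an inhibitory-like cluster.

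All 6 of the layer 4/5 intratelencephalic markers above the floor were lower in cluster 1 by 2-fold or more, as were 4 of 7 layer 5 extratelencephalic markers, 2 of 4 near-projecting markers and 5 of 6 layer 6 markers. The summed levels of the layer 4/5 and layer 6 lists were the lowest of all 23 clusters, at 1.42 and 0.992. That of the near-projecting list was 0.361 in cluster 1, against 0.0429 to 31.5 in the other excitatory-like clusters. Rorb, an orphan nuclear receptor of layer 4 and upper layer 5, had 0.789 in cluster 1, against 8.60 in cluster 0. It was lower still in clusters 2 and 16, at 0.319 and 0.469. Fezf2, which specifies subcortical projection neurons, had 0.010 in cluster 1 and 0.225 in the other excitatory-like clusters. Its partner Bcl11b had 0.175 and 1.04, and was lower still in cluster 0, at 0.0956. The layer 6 corepressor Tle4 had 0.455 and 3.52, and its level in cluster 1 was the lowest of all 23 clusters. Of 9 general excitatory neuron markers above the floor, 7 had lower levels in cluster 1 than in the other excitatory-like clusters, with a median log2 difference of -0.30. Neurod6, a transcription factor of excitatory neurons, was lower by 2-fold or more, at 0.583 in cluster 1 and 1.22 in the others. It was lower still in cluster 5, at 0.426. Slc17a7, the vesicular glutamate transporter of cortical neurons, had 2.03 in cluster 1 and 2.12 in the others. Camk2a, the calcium and calmodulin dependent kinase of excitatory synapses, had 5.83 and 3.49 and was highest in cluster 1 of all clusters, though below 2-fold.

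**Figure D2:**
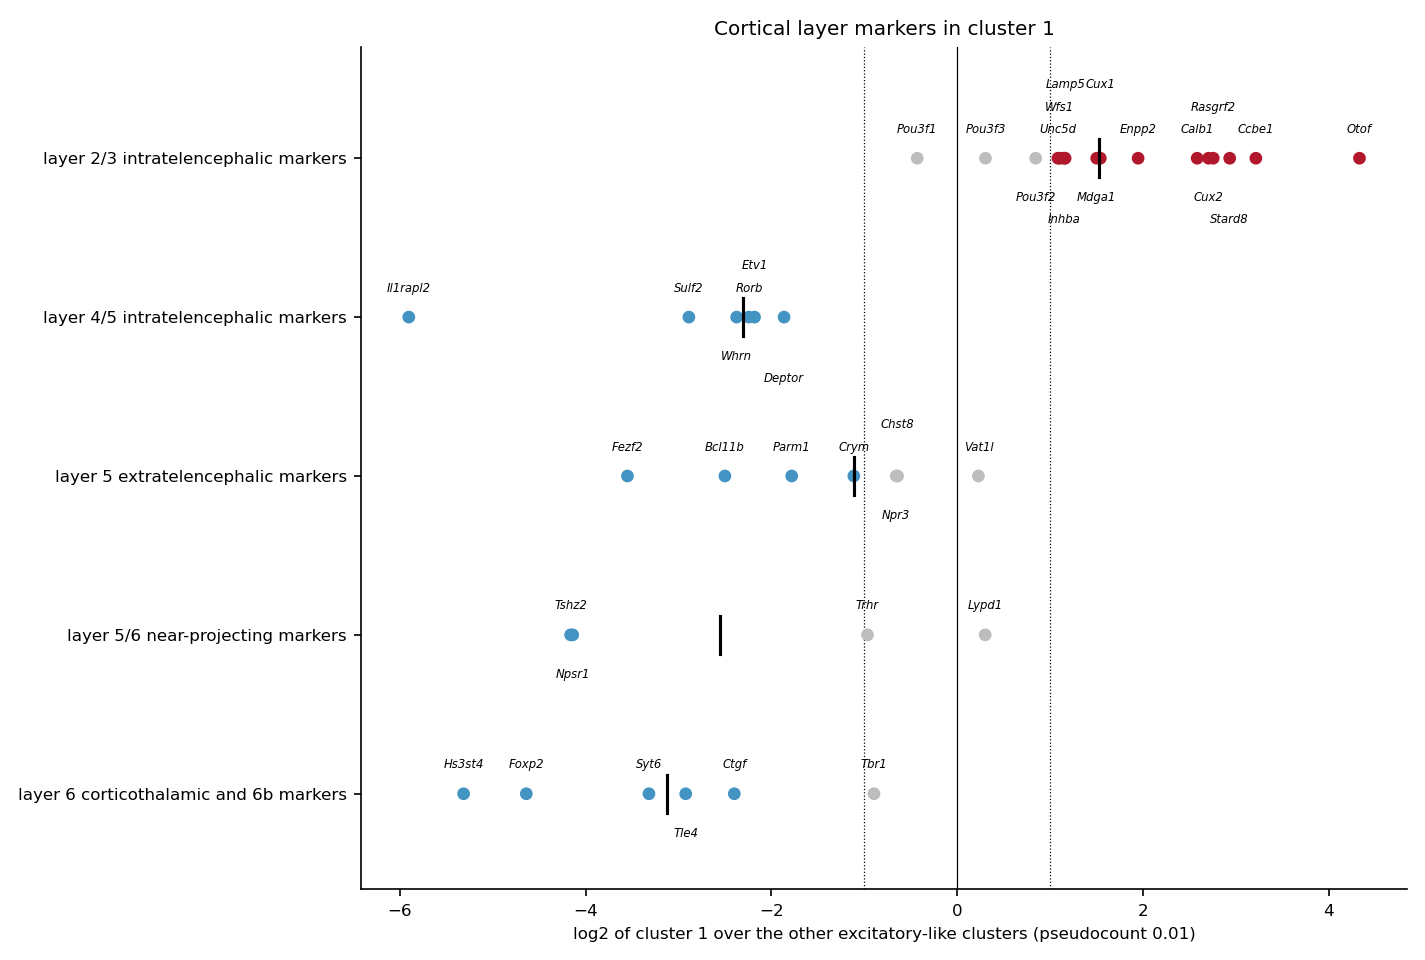
Log2 of cluster 1 over the nuclei-weighted mean of the other excitatory-like clusters (horizontal axis) for the members above the floor of 5 layer marker lists, with points in red at 2-fold higher or more, in blue at 2-fold lower or more, and a black bar at the list's median. The layer 2/3 median lies at 1.52, and the layer 4/5 and layer 6 medians lie at -2.31 and -3.12.

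In the comparison with the other excitatory-like clusters, 177 of the 236 higher genes were above each of those 7 clusters taken singly, and 40 were at least 2-fold above each in the ratio of means (37 with the pseudocount of 0.01 added to both). Of the 236, 42 were highest in cluster 1 of all 23 clusters. Of the 399 lower genes, 137 were below each of the other excitatory-like clusters. Against all 22 other clusters together, 195 of 11747 genes (1.66%) were at least 2-fold higher in cluster 1 and 963 (8.2%) at least 2-fold lower. Lower genes outnumbered higher ones against the mean of the compared clusters, but not against their median, with 567 higher and 464 lower over all other clusters and 439 higher and 309 lower over the other excitatory-like clusters.

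**Figure D3:**
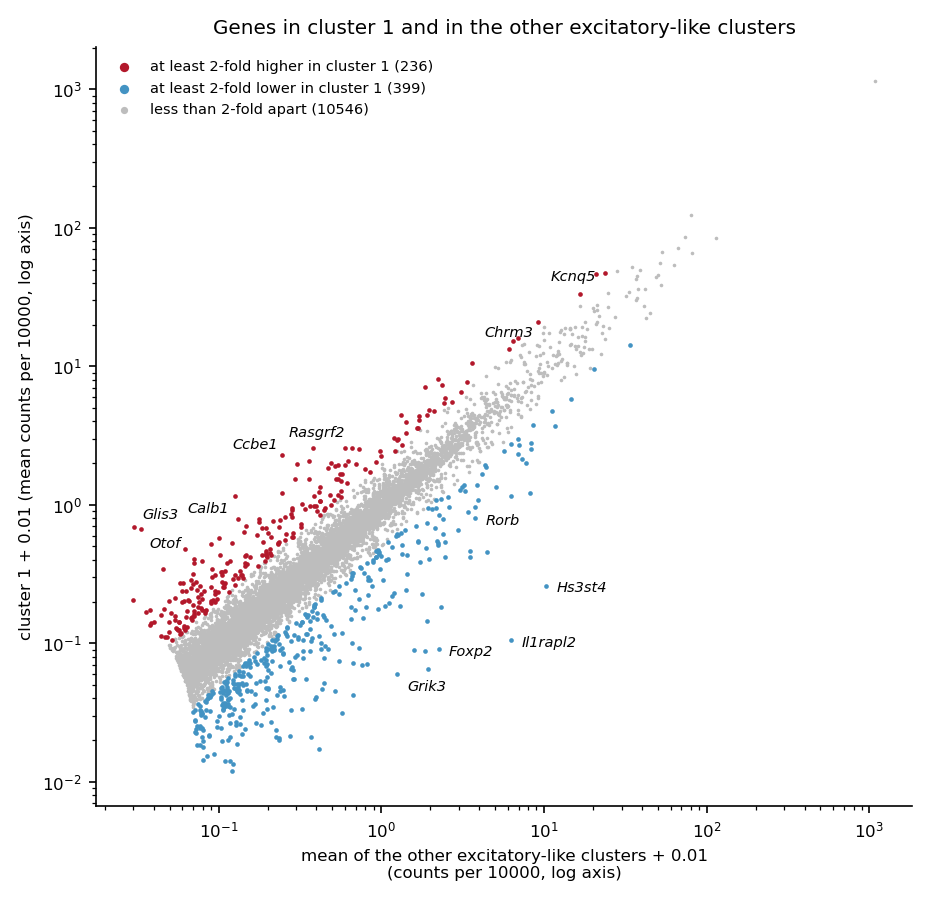
Mean counts per 10000 plus 0.01 in cluster 1 (vertical, log axis) against the nuclei-weighted mean of the other excitatory-like clusters plus 0.01 (horizontal, log axis), 1 point per gene above the floor. Red points are the 236 genes at least 2-fold higher in cluster 1 and blue points the 399 at least 2-fold lower, with Il1rapl2 and Hs3st4 farthest below.

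The largest increase against the other excitatory-like clusters belonged to Glis3, which encodes a zinc finger transcription factor. It had 0.682 (0.616 to 0.753) in cluster 1 and 0.0201 in the other excitatory-like clusters, a 33.9-fold difference. Outside the excitatory-like clusters Glis3 was not particular to cluster 1, with 2.38 in cluster 14, 1.01 in cluster 18 and 0.628 in cluster 3.

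Stard8, a GTPase-activating protein, had 0.466 in cluster 1 and 0.0523 in the other excitatory-like clusters. Arhgap6, another such protein, had 0.395 and 0.0608, with a noncoding antisense gene, Gm15261, at 0.369 and 0.0605. Both were higher in clusters outside the excitatory-like ones, with Arhgap6 up to 1.94 in cluster 13 and Gm15261 up to 1.36 in cluster 11. Whether the counting used strand is not given in the sources used here, so this pair cannot be told apart. Prkg2, a cGMP-dependent protein kinase, had 0.565 and 0.0911, and Evc2, a ciliary component of Hedgehog signalling, had 0.335 and 0.0354. Prkg2 was higher in clusters 19, 10 and 13, at 0.671, 0.632 and 0.605.

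Slc39a12, encoding a zinc transporter, had 0.194 in cluster 1, 0.0200 in the other excitatory-like clusters and 3.18 in cluster 14. Like Glis3 and Stard8, it was highest in cluster 14, which carries astrocyte markers. Of the 7 astrocyte markers, Slc1a3 alone was 2-fold higher in cluster 1 than in the other excitatory-like clusters (0.258 and 0.0597), while Slc1a2 had 1.495 and 2.90, Aldoc 0.120 and 0.137, Gja1 0.0210 and 0.0218 and Aqp4 0.00872 and 0.00554. The summed level of the 7 was 1.92 in cluster 1, between 1.13 and 6.16 in the other excitatory-like clusters and 55.9 in cluster 14. Their part in these genes was not tested.

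Promoter sequences of leading genes were read from RefSeq (GRCm38.p6, 250 bases before to 50 after each start), and 9 of 17 leading genes had an entry, with 12 windows in all. They were searched on both strands for CACGTG, the E-box bound by clock factors of the NPAS2 family, and for ATCGAT, a core motif of CUX proteins. Each motif reads the same on either strand, and the pair does not overlap. CACGTG was in 1 of the 12 windows and in 7.15% of all 32851 promoter windows. ATCGAT was also in 1, that of Cux2 itself, and in 0.925% of all. Both windows are shown because they hold a match and belong to leading genes, with the match in capitals. The Rasgrf2 window lies at chr13:92131779-92132078 and the Cux2 window at chr5:122047776-122048075, both on the minus strand. A match is a run of letters, not a bound site.
Rasgrf2: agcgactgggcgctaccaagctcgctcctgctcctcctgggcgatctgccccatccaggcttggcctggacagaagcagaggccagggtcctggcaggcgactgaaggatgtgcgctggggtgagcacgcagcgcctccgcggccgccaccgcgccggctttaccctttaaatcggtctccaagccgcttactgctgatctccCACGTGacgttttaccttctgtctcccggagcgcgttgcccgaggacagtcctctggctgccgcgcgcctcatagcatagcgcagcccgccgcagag
Cux2: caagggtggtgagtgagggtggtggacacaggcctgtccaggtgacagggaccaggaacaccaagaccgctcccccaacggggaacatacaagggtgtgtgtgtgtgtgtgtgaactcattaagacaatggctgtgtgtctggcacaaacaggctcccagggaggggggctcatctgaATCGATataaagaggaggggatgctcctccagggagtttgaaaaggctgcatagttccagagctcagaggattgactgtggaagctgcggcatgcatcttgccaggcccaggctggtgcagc

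Of the 10 largest decreases against the other excitatory-like clusters, 5 were members of the deeper layer lists above. Il1rapl2, a synaptic member of the interleukin-1 receptor family, had 0.0948 (0.0713 to 0.124) in cluster 1 and 6.26 in the other excitatory-like clusters, where it ranged up to 13.5 in cluster 0. Hs3st4, a heparan sulfate sulfotransferase, had 0.250 (0.211 to 0.295) and 10.3, with 28.3 in cluster 2 and 27.3 in cluster 16. Foxp2, a transcription factor of corticothalamic neurons, had 0.0804 (0.0589 to 0.107) and 2.24, the lowest of all 23 clusters. Grik3, a kainate receptor subunit, had 0.0501 and 1.24 and was also lowest of all.

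Tshz2, a zinc finger gene of near-projecting neurons, had 0.0789 in cluster 1, against 28.2 in cluster 15 and at most 0.557 in the other excitatory-like clusters. Tshz2 was lower still in clusters 7 and 20, at 0.0388 and 0. The overlapping antisense transcript Gm26883 had 0.0553 in cluster 1 and 34.5 in cluster 15, and it cannot be told apart from Tshz2 without strand. Npsr1, the neuropeptide S receptor, had 0.0111 in cluster 1, 1.96 in cluster 5 and 0.604 in cluster 15. Low Npsr1 was not particular to cluster 1, with 0 in clusters 16 and 20 and 0.0456, 0.0228 and 0.0935 in clusters 0, 2 and 7. For Il1rapl2, Hs3st4, Foxp2, Grik3 and Rxfp1, cluster 1 lay below each of the other excitatory-like clusters. Rxfp1, the relaxin receptor, had 0.0211 in cluster 1, between 0.228 and 0.391 in 5 of the others, 2.01 in cluster 7 and 3.53 in cluster 20.

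The excitatory-like clusters whose profiles were most like that of cluster 1 were cluster 0 and cluster 7, with Pearson's r of 0.963 and 0.957 across 11747 genes, on log values of columns that share both libraries. Cluster 3, which is not counted among the excitatory-like clusters, came next at 0.948. Of the excitatory markers it had Camk2a at 4.23, Slc30a3 at 0.645, Neurod2 at 0.254 and Neurod6 at 0.520. Of the inhibitory markers it had Gad1 at 0.130, Gad2 at 0.0678, Erbb4 at 5.09 and Adarb2 at 4.13. Slc30a3, Neurod2, Neurod6, Gad1 and Gad2 lay within the range of the other excitatory-like clusters, while Camk2a, Erbb4 and Adarb2 lay above it. Some genes called higher in cluster 1 than in the other excitatory-like clusters were higher still in cluster 3. Among them were Arhgap6 (0.809), Syt17 (1.38), Gabra2 (4.99), Gabrg1 (0.586) and Inhba (0.537). The remaining excitatory-like clusters had r between 0.865 and 0.936. Against cluster 0, 283 genes (2.53%) were at least 2-fold higher in cluster 1 and 327 (2.92%) at least 2-fold lower. Against cluster 7 the counts were 338 (3.02%) and 332 (2.97%). The genes named next for these pairs were chosen after their values were seen, except for those named above.

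Against cluster 0, the lower genes included Rorb and Il1rapl2, given above. Galntl6, a member of the GalNAc-transferase family, had 1.22 in cluster 1 and 14.9 in cluster 0, and Slc24a3, a sodium, calcium and potassium exchanger, had 0.525 and 4.88. In the other direction, Fbxl7 had 0.801 in cluster 1 and 0.0604 in cluster 0, Kctd8, an auxiliary subunit of GABA-B receptors, had 0.572 and 0.0457, and Mdga1, a regulator of neuroligins, had 0.243 and 0.0248. Cux2 was shared in part, at 1.96 in cluster 1 and 0.684 in cluster 0.

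Cluster 7 shared Ccbe1 and Itga8 with cluster 1 but had almost no Cux2, at 0.0347. Gpc5, a glypican, had 2.96 in cluster 1 and 0.173 in cluster 7, Luzp2 had 4.43 and 0.407, and the glycine receptor subunit gene Glra3 had 0.767 and 0.0272. Lower in cluster 1 were Rxfp1, Galnt14 (0.0823 in cluster 1 and 2.78 in cluster 7) and the semaphorin gene Sema3e (0.0595 and 1.63). Fbxl7 and Glis3 were low in both neighbours, with Fbxl7 at 0.0297 in cluster 7.

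Of 9 adrenergic, orexin, histamine and adenosine receptors above the floor, 5 were lower by 2-fold or more in cluster 1 than in the other excitatory-like clusters and none 2-fold higher. For this and the gene families below, the shares among all genes above the floor were 2.11% higher and 3.57% lower. Of 7 serotonin receptors 3 were lower and none higher by 2-fold or more, with a median log2 difference of -0.11 over the 7. Among the lower ones, low Htr2c and Htr4 were not particular to cluster 1. Htr2c had 0.452 there, above clusters 2, 5, 7 and 16, and reached 8.71 in cluster 15 and 3.44 in cluster 20. Htr4 had 0.0237 in cluster 1, against 0.0269 in cluster 0, 0.0197 in cluster 7 and 1.70 in cluster 15. Htr1f had 0.448 in cluster 1 and 4.48 in the others, and each of the other excitatory-like clusters lay between 2.79 and 7.13. The orexin receptor Hcrtr2 had 0.0166 and 0.160, and the adenosine A1 receptor Adora1 had 0.0809 and 0.209. Hcrtr2 was also low in clusters 0 and 7, at 0.0104 and 0.0211, and reached 0.891 in cluster 15. Adora1 was lower in cluster 20, at 0.0634. Of 7 acetylcholine receptor genes above the floor, 1 was higher and 3 were lower by 2-fold or more, with a median log2 difference of -0.81. Chrm3, the M3 muscarinic receptor, had 13.3 in cluster 1 and 6.13 in the others. The lower genes were Chrm2, at 0.278 and 1.02, and the nicotinic subunits Chrna5, at 0.00429 and 0.0707, and Chrna4, at 0.0216 and 0.0593. Chrna5 was also low in clusters 0 and 7, at 0.0077 and 0.00153. Cluster 5 was lower than cluster 1 in Chrm2, at 0.167, and in Chrna4, at 0.0207. Chrm3 was higher still in cluster 20, at 15.96.

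Of the dopamine receptors, Drd1 had 0.0254 in cluster 1 and 0.152 in the other excitatory-like clusters. Cluster 0 had 0.0685, and cluster 5 was lower than cluster 1, at 0.00622. Of 7 dopamine receptor and synthesis genes above the floor, 1 was 2-fold lower and none 2-fold higher, with a median log2 difference of -0.23. Th, Gch1, Ddc and Drd3 had no UMI in cluster 1, which allows a mean of up to about 0.00522 each.

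Receptors of fast transmission differed by subunit. Of 16 ionotropic glutamate receptor genes above the floor, none was 2-fold higher in cluster 1. The 2 kainate subunits Grik3 and Grik1 were at least 2-fold lower. Grik1 had 0.0620 in cluster 1 and 0.658 in the others, a mean raised by 9.22 in cluster 15. Clusters 2, 5 and 7 had 0.0528, 0.0717 and 0.0875, so low Grik1 was not particular to cluster 1. Among the metabotropic glutamate receptors, Grm8 was lower, at 2.005 and 7.75. Of 14 GABA receptor genes, 3 were higher (Gabra2 at 4.76 and 2.11, Gabrd at 0.514 and 0.222, Gabrg1 at 0.190 and 0.0661), and Gabra5 was lower at 0.409 and 0.925.

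Of 26 voltage-gated potassium channel genes above the floor, 4 were higher by 2-fold or more in cluster 1 and 1 was lower, and of 22 sodium, calcium and HCN channel genes none was higher and 3 were lower, beside 2.11% higher and 3.57% lower among all genes above the floor. Kcnq5, a subunit of M-type channels, had 33.4 in cluster 1 and 16.7 in the other excitatory-like clusters, and it was higher in cluster 6, at 40.7. Clusters 7, 5, 0 and 20 came nearer to cluster 1 in Kcnq5, at 29.1, 23.1, 20.3 and 18.8. Clusters 2, 15 and 16 had 5.49, 3.23 and 3.32. Kcnh4 had 0.263 in cluster 1 and 0.0505 in the other excitatory-like clusters.

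Among the surface and matrix genes, Nectin3, Itga8, Ccbe1 and Smoc2 came with the choice of the cluster, so their high levels were given in advance. Of all genes above the floor, 2.11% were higher and 3.57% lower. Of 12 nectins, neurexins, neuroligins and LRRTM genes above the floor, Nectin3 alone was at least 2-fold higher in cluster 1. Of 11 integrin subunits, Itga8 and Itgb8 were higher (Itgb8 at 0.407 in cluster 1 and 0.147 in the others) and Itga7 and Itga5 lower. Of 22 matrix genes, Ccbe1, Smoc2 and the collagen Col19a1 (1.83 and 0.459) were higher and 6 were lower. Of 21 cadherins and protocadherins, Cdh7 was higher at 1.89 and 0.507, as were Pcdh8 and Pcdh11x, and Cdh18 was lower at 3.70 and 11.7. Cluster 5 came near in Cdh7, at 1.73, and cluster 16 in Pcdh11x, at 2.54. Pcdh8 was higher in cluster 20, at 0.233, and Cdh18 was lower in clusters 5 and 20, at 3.19 and 1.69. Cdh12 had 8.45 in cluster 1, the highest level of all 23 clusters, but stayed within 2-fold of the others, at 4.42.

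Of 33 axon guidance genes above the floor, 3 were higher by 2-fold or more in cluster 1 and 8 lower, beside 2.11% higher and 3.57% lower among all genes. The higher ones were all receptors. Epha3 had 2.05 in cluster 1 and 0.619 in the other excitatory-like clusters. Robo3 had 0.916 and 0.331, but its level was nearly matched by cluster 7 (0.889) and exceeded by cluster 20 (1.26). For Robo3, cluster 5 had 0.672, while clusters 0, 2, 15 and 16 lay between 0.0121 and 0.164. The netrin receptor Unc5d had 6.53 in cluster 1 and 3.07 in the others. The lower ones included 5 semaphorins, with Sema5a at 0.0325 and 0.662 and Sema3e at 0.0595 and 0.753, each the lowest of all 23 clusters, together with Ntng1, encoding netrin-G1. The semaphorin receptor Nrp1 had 0.210 and 1.16, and the netrin receptor Dcc had 4.73 and 11.3.

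Otof belongs to the ferlins, calcium-binding membrane proteins of vesicle fusion. Its relative Dysf, encoding dysferlin, was also higher in cluster 1, at 0.262 and 0.0476, and so was the synaptotagmin gene Syt17, at 1.18 and 0.476. Syt6, a layer 6 gene, was lower at 0.0295 and 0.384, as was Syt10, so that 3 of 15 ferlin and synaptotagmin genes above the floor were higher and 2 lower. Otof is among the 3 and came with the choice of the cluster. Beside these counts, 2.11% of all genes above the floor were higher and 3.57% lower. Syt6 was also low in clusters 0 and 5, at 0.0261 and 0.0266.

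Most clock genes lay within 2-fold of the other excitatory-like clusters. Of 19 above the floor, Rorb alone was at least 2-fold lower and none was 2-fold higher, with a median log2 difference of 0.17. Rorb was lower still in clusters 2 and 16, as given above. Npas2 (chromosome 1, 39193731 to 39363236, plus strand) had 1.78 (1.67 to 1.89) in cluster 1 and 1.67 in the other excitatory-like clusters, which placed cluster 1 sixth of 23 and well below cluster 6, at 3.40. Per2 had 0.326 in cluster 1, the highest of all clusters, and 0.222 in the others. Of 20 activity-regulated genes, Inhba was 2-fold higher, at 0.427 and 0.187, and Nr4a2 lower, at 0.0286 and 0.129.

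The summed level of the 11 inhibitory neuron markers was 1.67, the lowest of all 23 clusters, against 225 in the highest, and the interneuron factor Lhx6 was at 0. The oligodendrocyte markers summed to 1.17 in cluster 1 and 85.2 in the highest cluster, the microglia markers to 1.90 and 53.2, and the precursor markers to 0.132 and 24.97. The striatal spiny projection neuron markers summed to 8.35 in cluster 1 and 56.3 in the highest cluster. The 6 vascular markers summed to 0.603 in cluster 1, the third highest level, and 3.69 in the highest cluster, and Tek alone gave 0.548 of the sum in cluster 1. Mitochondrial transcripts, by contrast, summed to 39.8 over 13 genes in cluster 1, above the range of 21.9 to 34.4 in the other excitatory-like clusters. They differed strongly between the libraries, at 14.2 in the knockout-labelled library and 62.5 in the wild-type-labelled library. Their part in the values of cluster 1 was not tested.

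Cluster 1 made up a smaller share of the knockout-labelled library. Its nuclei were divided between the libraries from 1634 UMIs of rare genes, each of which gives the depth and the library of the nucleus that held it. An estimated 49.1% (45.2 to 52.9) of the cluster came from the knockout-labelled library, although that library held 56.2% of all nuclei. From the 259 UMIs of genes listed in cluster 1 alone the estimate was 52.4% (44.7 to 59.97), an interval that holds 56.2%. Cluster 1 was thus 10.8% (9.92 to 11.6) of the knockout-labelled library and 14.3% (13.3 to 15.4) of the wild-type-labelled library, a ratio of 0.751. The other excitatory-like clusters together were 40.3% and 37.3%.

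Within cluster 1, nuclei of the knockout-labelled library had a median depth of 3441 UMIs and those of the wild-type-labelled library 4818. Summed over all clusters, this estimate gave 6955 nuclei in the knockout-labelled library, which is 2.87% below the 7161 that the columns give exactly. With 1 pool per genotype, mice, dissection, nuclei isolation and genotype cannot be told apart in these shares. Cluster 6, with its striatal markers, was 1.30% of the knockout-labelled library and 10.6% of the wild-type-labelled library, and without it cluster 1 was 10.9% and 16.03%. Of the excitatory-like nuclei alone, cluster 1 was 21.1% in the knockout-labelled library and 27.7% in the wild-type-labelled library.

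**Figure D4:**
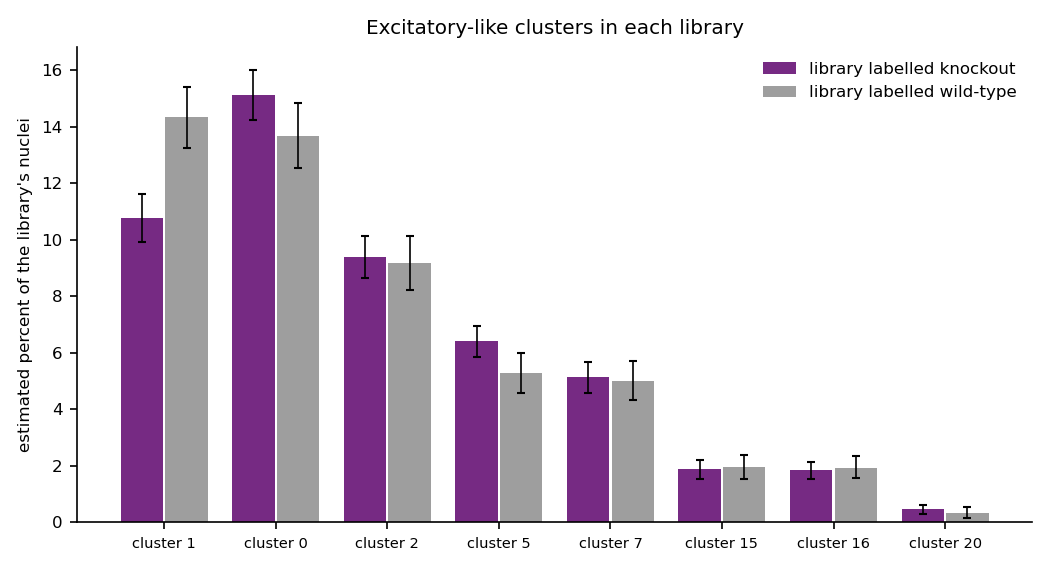
Estimated percent of each library's nuclei (vertical axis, from 0) in cluster 1 and the other excitatory-like clusters, for the knockout-labelled library (purple, left) and the wild-type-labelled library (grey, right), with 95% counting intervals as error bars. Cluster 1 is at 10.8% and 14.3%, and its intervals do not overlap.

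The cluster columns pool both genotypes, so the libraries were set side by side through genes whose signal lies mostly in cluster 1. There were 16 genes with at least 40% of their signal there, from Otof at 66.8% down to 40.5%, and Itga8 fell just outside at 39.9%. In such a gene, fewer nuclei of the cluster and less RNA per nucleus cannot be told apart, and at most 60% of the signal comes from other clusters. Of the 16, 10 were higher in the knockout-labelled library and 6 lower, and none differed by 2-fold. Over all 11747 genes above the floor, 41.2% were higher there, 0.579% by at least 2-fold, and 2.24% were at least 2-fold lower.

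Ccbe1 averaged 0.475 in the knockout-labelled library and 0.361 in the wild-type-labelled library, a ratio of 1.32 (1.18 to 1.47). Otof averaged 0.118 and 0.126, a ratio of 0.932 (0.764 to 1.14), and Smoc2 0.198 and 0.149, a ratio of 1.33 (1.12 to 1.58). Nectin3 differed in the other direction, with 0.488 in the knockout-labelled library and 0.796 in the wild-type-labelled library, a ratio of 0.613 (0.561 to 0.669).

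Cux2 averaged 0.563 in the knockout-labelled library and 0.639 in the wild-type-labelled library, a ratio of 0.882 (0.807 to 0.964). Robo3 had 0.303 and 0.196, a ratio of 1.55 (1.34 to 1.79), and Tespa1, a gene of calcium signalling in T cells, had 0.0763 and 0.0442, a ratio of 1.72 (1.28 to 2.34). Counting intervals lay above 1 for 8 of the 16 genes, below 1 for 2 and on both sides of 1 for 6. The intervals of Ccbe1 and Nectin3, both highest in cluster 1, lay on opposite sides of 1.

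The ratio of nuclei in cluster 1, 0.751, lies below the ratios of 15 of the 16 genes, all but Nectin3. These are unlike measures, since the gene ratios also hold signal from other clusters, whose ratios of nuclei differ. Level per nucleus was therefore not tested. The median log2 ratio of the 16 genes was 0.32. It was -0.15 over the 50 genes with at least 30% of their signal in cluster 1 and -0.018 over the 645 found with no floor. The 227 genes at least 2-fold higher in cluster 1 than in the other excitatory-like clusters and above the floor over all clusters had a median of -0.10, and 41.4% of them were higher in the knockout-labelled library, near the 41.2% of all genes. The 382 genes lower in cluster 1 had a median of 0.17, with 63.6% higher there. With 1 library per genotype, none of these differences has a replicate check.

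**Figure D5:**
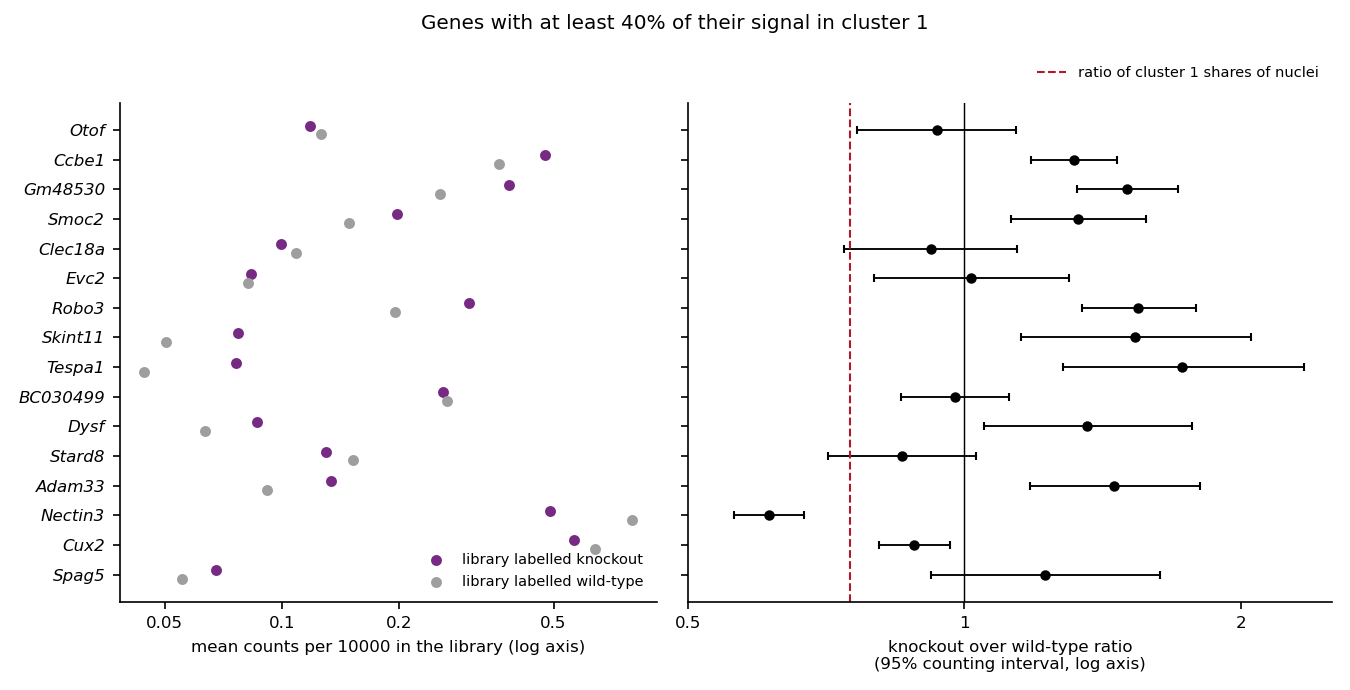
For the 16 genes with at least 40% of their signal in cluster 1, the left panel gives mean counts per 10000 (log axis) in the knockout-labelled library (purple) and the wild-type-labelled library (grey), and the right panel the ratio of the first over the second with 95% counting intervals (log axis). The red dashed line marks the ratio of the shares of nuclei, 0.751, and Nectin3 alone lies below it. The line is for cluster 1 alone, while the gene ratios also hold signal from other clusters.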

How the data were processed

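Nuclei were profiled with 10x Genomics 3' chemistry, 1 library per genotype, on genome build mm10 per the submitters' processing notes. How reads were aligned and counted, how nuclei were filtered and clustered and how doublets were treated were not given in the sources used here. As values, the authors deposited a linear signal, average normalized expression, for both libraries and 23 clusters. Each column summed to 10000, so a value is a mean over nuclei of counts per 10000 counts. The table holds no counts, so intervals planned on counts use UMI numbers estimated from depth.

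Numbers of nuclei are the whole-number weights that equate the library and cluster columns (whole to within 0.001 nuclei). In 7339 genes listed in at most 10 clusters, values that equal 1 or 2 UMIs gave depths and libraries of 13543 UMIs, each weighted by the reciprocal of its depth. The steps were tested on simulated data.

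Log2 differences and 2-fold calls use a pseudocount of 0.01 and a floor of 0.05 on the mean of the compared clusters, weighted by nuclei, and 2-fold counts as different. Folds printed as such are ratios of means without the pseudocount. Log values understate changes of low genes. No test applies. Intervals are 95% Poisson for levels, Clopper-Pearson for ratios and shares. Profile likeness used a pseudocount of 0.05. Named genes were the 6 markers, the 15 largest increases and 10 largest decreases against the other excitatory-like clusters, the 10 largest increases against all clusters, the 10 largest shares, Npas2 and up to 5 members per list; other genes were named after their values were seen, and some genes taken by the rule are not reported here. Members, lists and the excitatory-like clusters were chosen with earlier results of these data known. Gene positions are from GENCODE M21, in which 30902 identifiers were found. Python 3.11.15, numpy 2.4.6, scipy 1.17.1 and pandas 2.3.3 were used.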

Additional observations from a re-analysis of the deposited data

How the results depend on the processing

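Counts of genes past 2-fold depended on the pseudocount and the floor, and the cause was not tested. With a pseudocount of 0.1, no floor or a floor of 0.2, the genes higher and lower in cluster 1 numbered 104 and 416, 327 and 1612, or 103 and 417 against all other clusters, and 127 and 177, 412 and 622, or 125 and 200 against the other excitatory-like clusters. In the same order they numbered 133 and 154, 510 and 554, or 145 and 171 against cluster 0, and 160 and 133, 814 and 734, or 147 and 150 against cluster 7. Against the median of the compared clusters they were 567 and 464 over all others and 439 higher over the excitatory-like ones. By construction fewest passed against the highest or lowest single cluster, 4 and 4 over all others and 37 and 30 over the excitatory-like ones. A pseudocount of 0.001 and leaving out cluster 0, or clusters 21 and 22, kept these counts within 1.5-fold. Against that highest or lowest cluster, log2 values changed sign for Smoc2 (-0.54), Cux2 (-0.013), Robo3 (-0.45), Chrm3 (-0.27), Pcdh8 (-0.90), Gm26883 (2.71), Tshz2 (3.15), Npsr1 (1.08), Rorb (1.28), Fezf2 (1.003), Bcl11b (0.81), Syt6 (0.14), Syt10 (1.98), Drd1 (1.13), Grik1 (0.20), Grm8 (0.14), Gabra5 (0.15), Chrm2 (0.71), Chrna5 (0.52), Chrna4 (0.045), Neurod6 (0.44), Hcrtr2 (0.39), Adora1 (0.31), Itga5 (1.97), Cdh18 (1.12) and Nrp1 (0.24).

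Between the libraries, no floor gave 645 concentrated genes, 281 of them higher in the knockout-labelled library, 3 at least 2-fold apart and a median log2 ratio of -0.018. A threshold of 30% gave 50 genes, 19 higher, 1 at 2-fold and a median of -0.15. A floor of 0.2 left 6 genes, 3 of them higher, and a threshold of 60% left 2 genes, 1 of them higher. The share of cluster 1 was 16.03% of the wild-type-labelled library without cluster 6, and 21.1% and 27.7% of excitatory-like nuclei in the knockout-labelled and wild-type-labelled libraries. These denominators, the values of 1 UMI alone and the alternatives for clusters 0 and 7 were chosen after seeing the data. No paired analysis was possible because each genotype has 1 library, and no replicate could be left out. Depth limits low genes most, since 3 UMIs in cluster 1 already equal a mean of 0.00522.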
